A study of Drosophila melanogaster with 5 samples.

Results

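The chromatin of 49 genes for axon guidance and neural adhesion was compared between dopaminergic and GABAergic neurons of adult *Drosophila melanogaster* heads. The genes were chosen by name, as the known ligands, receptors, adhesion molecules and growth cone proteins of neuronal wiring. No measured value entered the choice, but earlier results of these data were known when the list was made. Each region of the study's comparison table carries the gene with the nearest transcription start site. All 49 genes were found in this way among 14414 genes, with 755 of the 80590 regions. They had 4 to 57 regions each, with a median of 12, while the median over all genes was 4.

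Growing axons read secreted and membrane-bound cues. Slit, netrins, semaphorins and Wnt5 are ligands that attract or repel the growth cone through Robo, Frazzled, Unc-5, plexin and Ryk-family receptors. Fasciclins, cadherins, teneurins, Dscam proteins and leucine-rich repeat proteins act at the contacts between neurites, where they sort axons into bundles and match synaptic partners. Receptor tyrosine phosphatases and cytoplasmic proteins such as Dock, Trio and Ena pass these signals to the cytoskeleton. Many of these genes have long introns, in which enhancers can lie.

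ATAC-seq was used, in which the transposase Tn5 inserts adapters into DNA that is not wrapped up, and open chromatin therefore gathers reads. Adult flies carried a Gal4 driver that switched on nuclear GFP, and GFP-labelled nuclei were collected from frozen heads by flow cytometry. The dopaminergic group was 2 libraries made with *TH-Gal4*, the driver from the tyrosine hydroxylase gene, and the GABAergic group was 3 libraries made with *vGAT-Gal4*, the driver from the vesicular GABA transporter gene. Both groups were raised at the same temperature on the same food, and sex and age are not given in the sources used here. Each library pooled nuclei from many flies, so that one value stands for all neuron subtypes that a driver labels. Whether the libraries of a group came from separate cultures is not stated, so p-values measure the spread between these libraries.

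The peak caller MACS2 had been run on each library separately. The lists held 40255 and 39261 distinct intervals in the dopaminergic libraries, in the order of their replicate numbers, and 49055, 50314 and 64779 in the GABAergic libraries. Each peak has a fold enrichment, its read pileup over the local background. The files analysed here hold no read counts per library, so depth did not enter the analysis. In the study's own listing, the libraries with the shortest peak lists did not have the fewest reads, but they had the highest shares of duplicate reads. The part of depth in the length of the lists was not tested. To compare lists of unequal length, the regions of the table were ranked in each library by the highest fold enrichment of a peak that overlaps them by at least 1 bp. Ranks were written as percentiles, and regions without a peak shared the lowest rank. The openness score of a gene is the mean percentile of its regions, and its mean over all regions is the same in every library. Scores were compared with limma over the 9418 genes with at least 3 regions, and a gene is called at an adjusted p-value under 0.05. Differences are dopaminergic minus GABAergic, in points of percentile rank.

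More guidance genes had higher scores in the GABAergic than in the dopaminergic libraries. Of the 49 genes, 24 (49.0%) were called higher in GABAergic neurons, 6 (12.2%) were called higher in dopaminergic neurons and 19 were not called. Over all genes tested the shares were 22.6% and 26.2%. The median difference of the members was -11.39 points and that of all genes 1.14 points. In 31 members all 3 GABAergic scores lay above both dopaminergic scores, and in 8 members they all lay below (all genes, 32.9% and 39.7%). Genes with many regions tended to be called, and members have many. Among genes with at least 10 regions, 19 (59.4%) of 32 members were higher in GABAergic and 3 (9.38%) in dopaminergic neurons, against 41.7% and 28.7% of all such genes. The plot of scores by library shows each value.

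**Figure D1:**
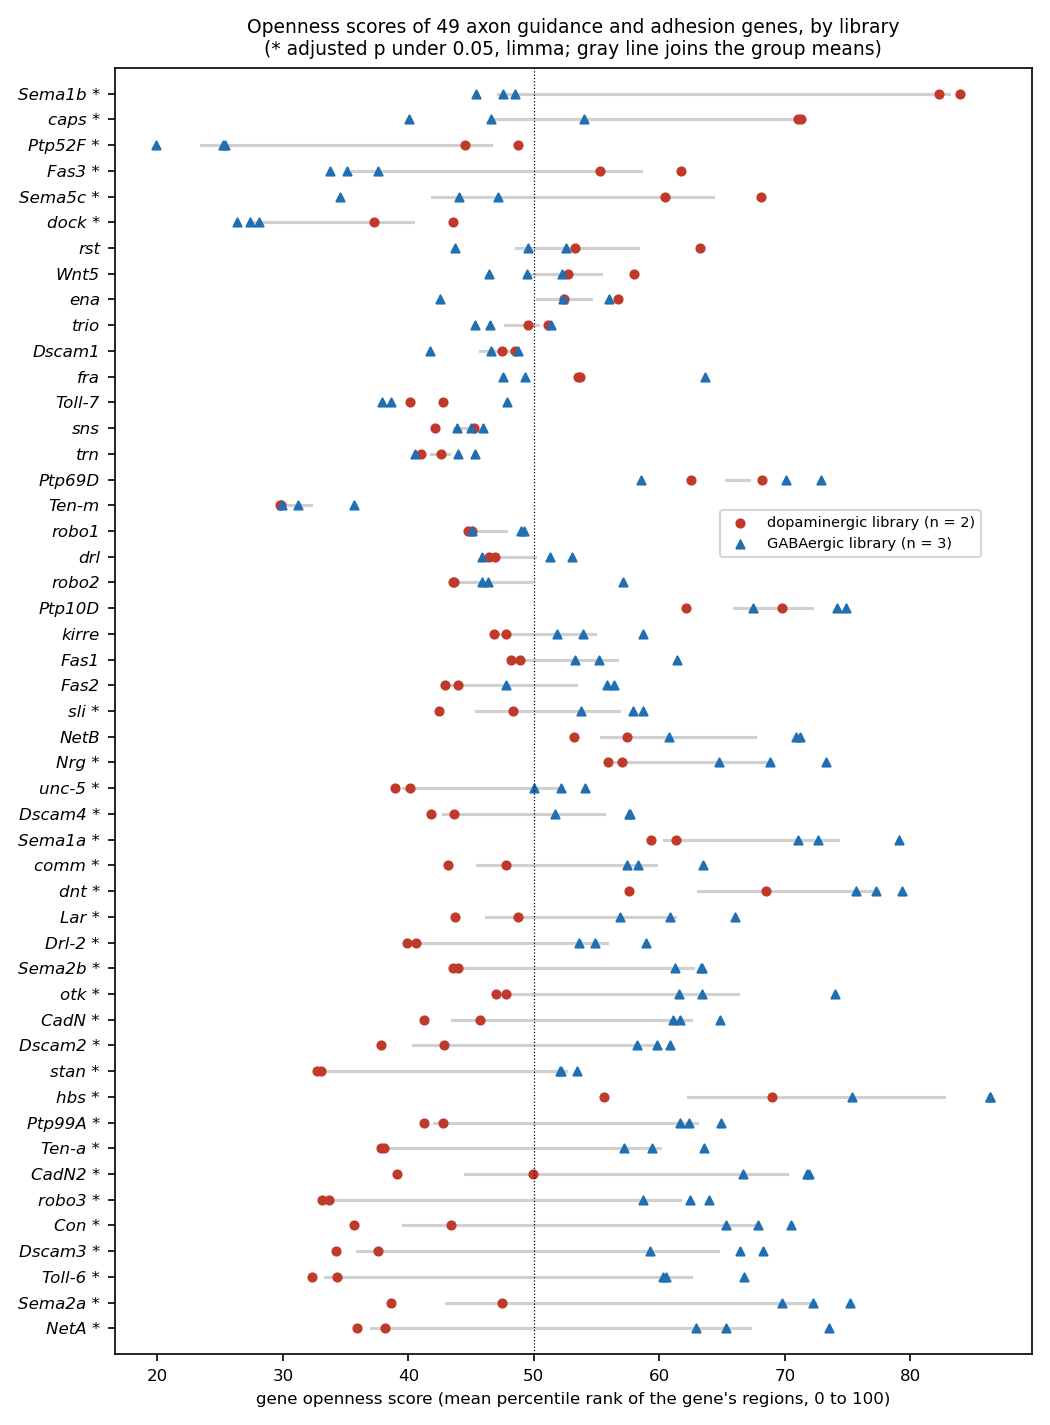
Openness scores (x axis, mean percentile rank of the gene's regions) of the 49 genes (y axis, ordered by the difference between group means) in 2 dopaminergic (red circles) and 3 GABAergic (blue triangles) libraries. Stars mark the 30 called genes, and the groups do not overlap in any of them: 6 at the top are higher in dopaminergic and 24 at the bottom are higher in GABAergic libraries.

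Slit and its Robo receptors control whether axons cross the midline. *robo3*, which helps to position axons at a distance from the midline, had scores of 33.7 and 33.1 in the dopaminergic libraries. In the GABAergic libraries they were 62.4, 63.9 and 58.7. Every GABAergic value was far above both dopaminergic values, with a difference of -28.3 (SE 2.93, adjusted p = 0.00113). *comm*, whose product keeps Robo away from the growth cone surface, differed by -14.3 (adjusted p = 0.0158), and the ligand gene *sli* by -11.4 (adjusted p = 0.0333). *robo1* and *robo2* were not called, with differences of -2.82 and -6.19. The start site of *robo2* still held a peak with a fold enrichment of 20.3, 19.5 and 12.3 in the GABAergic libraries, where the maxima over the whole lists were 21.5, 19.9 and 16.0. In the dopaminergic libraries it reached 6.01 and 7.74, where the list maxima were only 8.49 and 11.2. The region ranked at percentiles 99.0 and 98.6 there, so it was among the top regions in both groups. By the limma test of fold enrichment described below, it was still called higher in GABAergic neurons (log2 difference -0.75, SE 0.09, adjusted p = 9.75e-06).

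The netrins NetA and NetB are secreted attractants, Frazzled is their attractive receptor and Unc-5 their repulsive receptor. *NetA* had the lowest difference of all members. Its scores were 38.2 and 35.9 in dopaminergic and 73.5, 62.9 and 65.3 in GABAergic libraries. A peak was called at 1 of its 6 regions in either dopaminergic library and at 5 or 6 of them in the GABAergic libraries, and the difference was -30.2 (SE 3.95, adjusted p = 0.00222). *unc-5* was also higher in GABAergic neurons (difference -12.5, adjusted p = 0.0134). *NetB* differed by -12.3, with groups that did not overlap, but was not called (adjusted p = 0.0554). The receptor gene *fra* had a difference of 0.0962 with an SE of 5.35, so that a change of several points in either direction was within the error.

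The semaphorins, which signal through plexins, split between the neuron types, with 2 genes called in one direction and 3 in the other. *Sema1b*, a transmembrane semaphorin, had the highest difference of all members. Its scores were 84.0 and 82.3 in dopaminergic and 48.5, 47.5 and 45.4 in GABAergic libraries, a difference of 36.0 (SE 2.72, adjusted p = 0.000625). All 11 of its regions had a peak in both dopaminergic lists, while 5, 4 and 5 had one in the GABAergic lists. *Sema5c*, another transmembrane member, had scores of 60.4 and 68.1 against 47.2, 34.6 and 44.0, with a difference of 22.4 (SE 4.79, adjusted p = 0.0117). The secreted *Sema2a* went the other way. It scored 38.6 and 47.4 in dopaminergic and 72.3, 75.2 and 69.8 in GABAergic libraries, and the difference was -29.4 (SE 3.75, adjusted p = 0.00208). The secreted *Sema2b* and the transmembrane *Sema1a* differed by -18.9 (adjusted p = 0.00269) and -13.9 (adjusted p = 0.0197). Thus both secreted semaphorins were higher in GABAergic neurons, and the 3 transmembrane ones did not share a direction.

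Dscam proteins mediate self-avoidance and tiling of neurites. *Dscam3* scored 34.2 and 37.6 in dopaminergic and 66.4, 68.3 and 59.2 in GABAergic libraries, and 13 of its 22 regions had a peak in all 3 GABAergic lists and in no dopaminergic list. Its difference was -28.8 (SE 3.71, adjusted p = 0.00214). *Dscam2*, with 32 regions, scored 37.8 and 42.9 against 60.8, 58.2 and 59.8, a difference of -19.3 (SE 2.96, adjusted p = 0.0037). *Dscam4* differed by -12.9 (adjusted p = 0.0189). *Dscam1*, whose alternative splicing gives single neurons their own identity, was not called. Its scores of 47.5 and 48.5 lay within the range of the GABAergic scores of 46.6, 48.7 and 41.7.

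Wnt5 repels axons that carry the Ryk receptor Derailed. The ligand gene *Wnt5* and *drl*, which encodes Derailed, were not called, with differences of 5.99 and -3.38. The paralogs of *drl* were both higher in GABAergic neurons, *Drl-2* with a difference of -15.5 (adjusted p = 0.00762) and *dnt* with -14.4 (adjusted p = 0.0282). *otk*, a Ptk7-like co-receptor, scored 47.0 and 47.8 in dopaminergic and 63.4, 61.5 and 74.0 in GABAergic libraries. With 5 regions, it differed by -18.9 (SE 4.40, adjusted p = 0.0157).

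Receptor tyrosine phosphatases steer motor and photoreceptor axons. By nearest start site, *Ptp52F* stood alone among the members in having no peak in any GABAergic list. Its 8 regions took the lowest shared rank there, at 25.2, 25.4 and 19.9. Its scores in the dopaminergic libraries were 48.7 and 44.5, where 4 and 3 regions had a peak, and the difference was 23.1 (SE 3.24, adjusted p = 0.00276). A gene with no peak in any list has a fixed difference of 6.28 from these shared ranks, and none of 71 such genes was called. *Ptp99A* had the most regions of all members, 57. It scored 42.8 and 41.2 against 62.4, 64.9 and 61.6, with a difference of -21.0 (SE 2.73, adjusted p = 0.0022), and 21 of its regions were open in all 3 GABAergic lists only. *Lar*, which also acts at synapses, differed by -15.0 (adjusted p = 0.0202). *Ptp10D* and *Ptp69D* were not called, with differences of -6.22 and -1.84.

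Fasciclins and the L1-type protein Neuroglian hold axon bundles together. *Fas3*, a homophilic adhesion gene also known from epithelial septate junctions, scored 55.3 and 61.7 in dopaminergic and 37.5, 35.1 and 33.8 in GABAergic libraries. Both dopaminergic values were above all GABAergic values, by a difference of 23.0 (SE 3.23, adjusted p = 0.00276). *Nrg* was higher in GABAergic neurons (difference -12.5, adjusted p = 0.0272). *Fas2*, the NCAM-like member, and *Fas1* had non-overlapping groups and differences of -9.91 and -8.10, but were not called (adjusted p = 0.0661 and 0.0971).

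Leucine-rich repeat proteins and Toll receptors label target layers and muscles. *Toll-6*, which encodes a receptor for neurotrophin-like ligands, scored 32.3 and 34.3 in dopaminergic and 60.3, 60.5 and 66.7 in GABAergic libraries. The difference was -29.2 (SE 3.25, adjusted p = 0.00134). *Con*, encoding the homophilic adhesion protein Connectin, scored 35.7 and 43.4 against 70.5, 67.9 and 65.3, a difference of -28.3 (SE 3.55, adjusted p = 0.00195). *caps* went the other way, with scores of 71.1 and 71.3 in dopaminergic and 54.0, 46.6 and 40.1 in GABAergic libraries and a difference of 24.3 (SE 4.52, adjusted p = 0.00709). Its relative *trn* and the Toll receptor gene *Toll-7* were not called. Their differences were -1.44 and -0.0143, with SEs of 2.89 and 3.97.

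Teneurins match synaptic partners across the cleft, and cadherins order neurites in layers. This was the group with the lowest median difference, -19.7, and 4 of its 5 genes were higher in GABAergic neurons. *CadN2* scored 39.1 and 49.9 in dopaminergic and 71.9, 71.8 and 66.7 in GABAergic libraries (difference -25.6, SE 4.16, adjusted p = 0.00451). *Ten-a* scored 37.8 and 38.1 against 63.6, 59.4 and 57.2 (difference -22.1, SE 3.07, adjusted p = 0.00269). *stan*, the cadherin Flamingo, had 37 regions and scores of 33.0 and 32.7 against 53.4, 52.1 and 52.1, which made the groups tight as well as apart (difference -19.7, SE 2.57, adjusted p = 0.00221). *CadN* differed by -19.0 (adjusted p = 0.00411). *Ten-m* was not called, with 29.8 in both dopaminergic libraries, where none of its 7 regions had a peak.

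Among the immunoglobulin proteins of the irre cell recognition module, which sort cells in the eye and fuse myoblasts, *hbs* alone was called. It has only 4 regions and scored 55.6 and 68.9 in dopaminergic and 86.4, 86.4 and 75.3 in GABAergic libraries (difference -20.4, SE 5.54, adjusted p = 0.0263). *kirre*, with 26 regions, scored 46.8 and 47.8 against 58.7, 54.0 and 51.9, which did not pass the threshold (adjusted p = 0.0951). *sns* and *rst* differed by -1.27 and 9.66. The 3 cytoplasmic genes included none that was higher in GABAergic neurons. *dock*, an adaptor of the Nck family, scored 43.6 and 37.3 in dopaminergic and 27.4, 28.1 and 26.3 in GABAergic libraries (difference 13.1, SE 3.09, adjusted p = 0.0163). Few of its 16 regions had a peak, 6 and 3 in the dopaminergic and 1, 1 and 4 in the GABAergic lists. At 7 of them no list had a peak, and such regions carry the fixed difference of 6.28 from the shared ranks. *trio*, a guanine nucleotide exchange factor for Rac with 42 regions, scored 49.5 and 51.1 against 51.4, 46.5 and 45.3, and *ena*, an actin regulator, differed by 4.29 with an SE of 4.65. Neither was called.

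Counts of open regions were compared next. A peak lay at 30.1% and 32.8% of the 755 member regions in the dopaminergic lists and at 61.3%, 60.4% and 66.8% in the GABAergic lists. The mean was 31.5% ± 1.97 (SD, n = 2) in dopaminergic and 62.8% ± 3.43 (SD, n = 3) in GABAergic libraries. An exact two-sided permutation test gave p = 0.2, the smallest that 2 against 3 libraries allow. Over all regions of the table the shares were 40.5% and 40.4% against 49.5%, 49.2% and 60.2%, so the members lay below the table in both dopaminergic lists and above it in all 3 GABAergic lists. As a share of each list, intervals at member regions made up 0.636% and 0.647% in dopaminergic and 0.983%, 0.970% and 0.835% in GABAergic libraries, also with p = 0.2 in the exact permutation test. In 32 members every GABAergic list held more open regions than either dopaminergic list, and in 4 members both dopaminergic lists held more than any GABAergic list (all genes tested, 32.9% and 17.8%). Among genes with at least 10 regions these were 23 (71.9%) and 2 (6.25%) of 32 members, against 53.0% and 17.8% of all such genes.

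Of the member regions, 178 (23.6%) had a peak in all 3 GABAergic lists and in no dopaminergic list, and 44 (5.83%) had the opposite pattern. Over all regions these shares were 13.2% and 8.42%. List length enters these counts. With equal numbers of intervals per list, 85 member regions (11.3%) were open in GABAergic lists only and 49 (6.49%) in dopaminergic lists only, against 7.16% and 10.1% of all regions. A peak in all 5 lists was found at 137 member regions (18.1%, all regions 20.6%), and none at 130 (17.2%, all regions 19.5%). Regions open in GABAergic lists only lay in 34 members and those open in dopaminergic lists only in 19, of which 12 had both kinds, and 8 members had neither. Over all genes tested the shares were 39.9%, 31.3%, 8.79% and 37.6%, but a gene with more regions has more chances of such a region. Among genes with at least 10 regions, 25 (78.1%) of 32 members had a GABAergic-only and 15 (46.9%) a dopaminergic-only region, close to the 70.4% and 47.8% of all such genes. The Dscam family and the teneurins and cadherins had the highest shares of GABAergic-only regions, 35.8% of 95 and 31.7% of 101. The fasciclins and the semaphorins had the highest shares of dopaminergic-only regions, 17.0% and 15.1% of 53 each. *Fas3* with 7, *Sema1b* with 5 and *kirre* with 5 dopaminergic-only regions led the members in number.

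**Figure D2:**
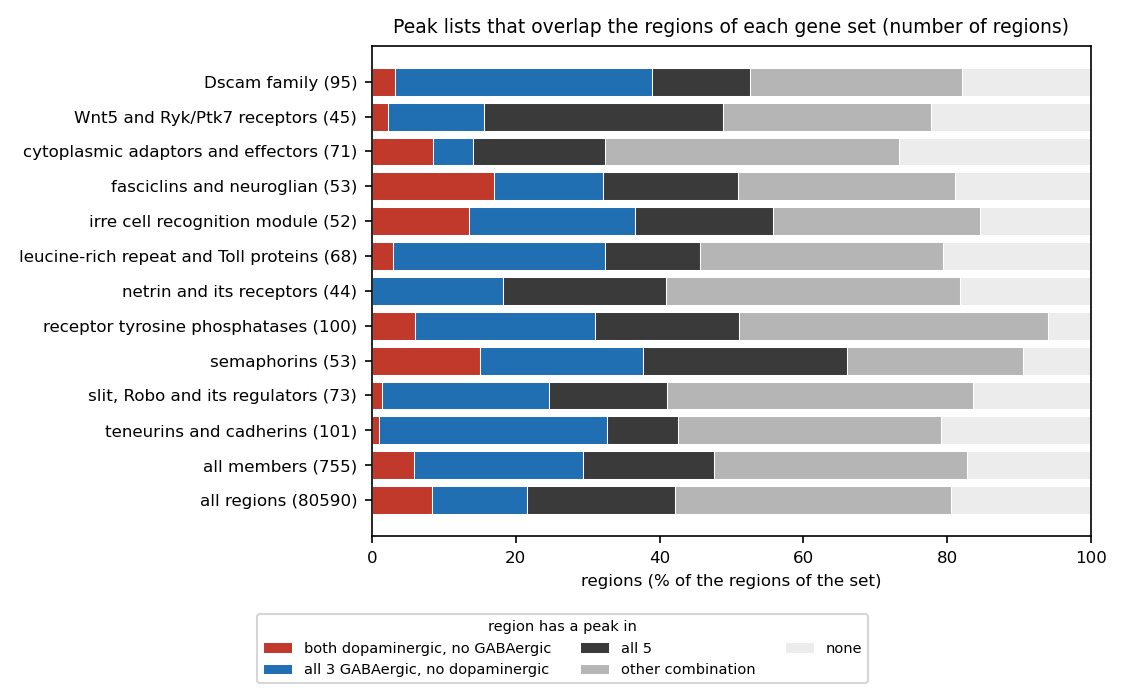
Share of regions (x axis, percent) by the peak lists that overlap them, for each role group, all members and all 80590 regions of the table (y axis, number of regions in parentheses). Red marks regions with a peak in both dopaminergic lists and no GABAergic list (5.83% of member regions), and blue those in all 3 GABAergic lists and no dopaminergic list (23.6% of member regions, 13.2% of all regions). With equal numbers of intervals per list the blue shares would be 11.3% and 7.16%.

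Position within the gene went along with these patterns. Introns held 306 (40.5%) of the member regions but 19.8% of all regions. Of the intronic regions of members, 32.0% were open in GABAergic lists only and 6.21% in dopaminergic lists only, while over all introns of the table the shares were 22.0% and 9.47%. Exonic regions of members were open in GABAergic lists only in 30 of 121 cases (24.8%, all exons 16.2%), and 0 of 121 in dopaminergic lists only, where all exons gave 1.58%. Within 1000 bp of a start site, 55.2% of the 174 member regions had a peak in all 5 lists (all such regions 36.8%), and 15 regions (8.62%) had each of the exclusive patterns, near the 10.5% dopaminergic-only and 6.82% GABAergic-only of all such regions.

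The exclusive regions with the highest mean signal show what stands behind these counts, with positions in the release 6 assembly. The mean signal is the authors' normalised read count over all libraries. An intronic region of *caps* (chr3L:13235906-13236315, 7214 bp from the start site) had a mean signal of 412 and a fold enrichment of 4.51 and 6.14 in the dopaminergic libraries. A region of *Sema1b* (chr2R:17677431-17677741, 1514 bp from the start site) reached 4.36 and 5.80, and an intronic region of *Fas3* (chr2L:18327119-18327460) 4.21 and 5.01. No GABAergic list had a peak at any of these 3 places. In the opposite direction, a wide region of 971 bp near the *Toll-6* start site (chr3L:15337226-15338196) had fold enrichments of 3.32, 2.77 and 2.99 in the GABAergic libraries. A region in an untranslated part of *Toll-7* (chr2R:19830614-19831247) reached 2.04, 1.84 and 2.21, and an exonic region of *Drl-2* (chr2R:13067543-13068220) 2.90, 2.43 and 3.29. These 3 regions had no dopaminergic peak. These 3 GABAergic regions had lower fold enrichments than the 3 dopaminergic ones, but the lists differ in their lowest values, which were 1.80 and 1.93 in dopaminergic and 1.33, 1.32 and 1.33 in GABAergic libraries.

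Fold enrichment itself was tested at the 16601 regions with a peak in all 5 lists, on the log2 scale after quantile normalisation. Among the 137 member regions of this kind, 71 (51.8%) were higher in GABAergic neurons and 11 (8.03%) in dopaminergic neurons, while over all tested regions the shares were 27.7% and 25.3%. The median log2 difference was -0.39 at member regions and -0.02 over all regions. The 3 largest changes towards dopaminergic neurons lay in an intron of *Dscam1* (chr2R:7371362-7371579), 593 bp from a start site of *trio* (chr3L:1006817-1007182) and 174 bp from a start site of *Sema1a* (chr2L:8542321-8542479). At the *Dscam1* intron the fold enrichments were 4.88 and 6.03 in dopaminergic and 2.01, 2.16 and 2.06 in GABAergic libraries, a log2 difference of 1.39 (SE 0.17, adjusted p = 6.05e-06), or 2.62-fold. The regions of *trio* and *Sema1a* had log2 differences of 1.26 and 1.11. Towards GABAergic neurons, a start-site region of *Ten-a* (chrX:12203424-12203997) had fold enrichments of 3.83 and 4.89 in dopaminergic and 16.96, 15.99 and 9.44 in GABAergic libraries, a log2 difference of -1.41 (SE 0.11, adjusted p = 2.36e-07). A start-site region of *Con* (chr3L:5078959-5079410) and a region 354 bp before a start site of *unc-5* (chr2R:15349399-15349779) differed by -1.38 and -1.37. So *Dscam1* and *Sema1a* each held a region opposite to, or more marked than, their gene score.

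Start sites were then looked at alone, taking for each gene the region over a start site with the highest mean signal. Of the 49 members 46 had such a region, and 45 of these had a peak in all 5 lists. Over all genes this held for 74.4% of 7801 start-site regions. The exception was *Sema5c* (chr3L:12081651-12081898), which had fold enrichments of 4.13 and 5.58 in the dopaminergic libraries and no peak in any GABAergic list. Of the 45 tested regions, 24 were higher in GABAergic and 3 in dopaminergic neurons, against 22.3% and 30.8% of the 5805 start-site regions tested over all genes. Neither these shares nor the 74.4% was matched for the number of regions per gene. Log2 differences below -1.1 were found at *Ten-a*, *CadN2*, *Con*, *Sema2a*, *Dscam3*, *unc-5* and *robo3*. The 3 in the other direction were *Ptp99A* (log2 difference 0.99, SE 0.13), *ena* (0.97, SE 0.14) and *trio* (0.95, SE 0.15). At this region of *Ptp99A* the fold enrichments were 5.26 and 7.40 in dopaminergic and 3.92, 3.56 and 2.85 in GABAergic libraries, opposite in direction to its gene score. Of the 9 regions of *Ptp99A* with a peak in all 5 lists, only this 1 was called higher in dopaminergic neurons, and 4 were called higher in GABAergic neurons. The start site of *caps*, whose score was higher in dopaminergic neurons, was higher in GABAergic neurons (log2 difference -0.59, SE 0.11).

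**Figure D3:**
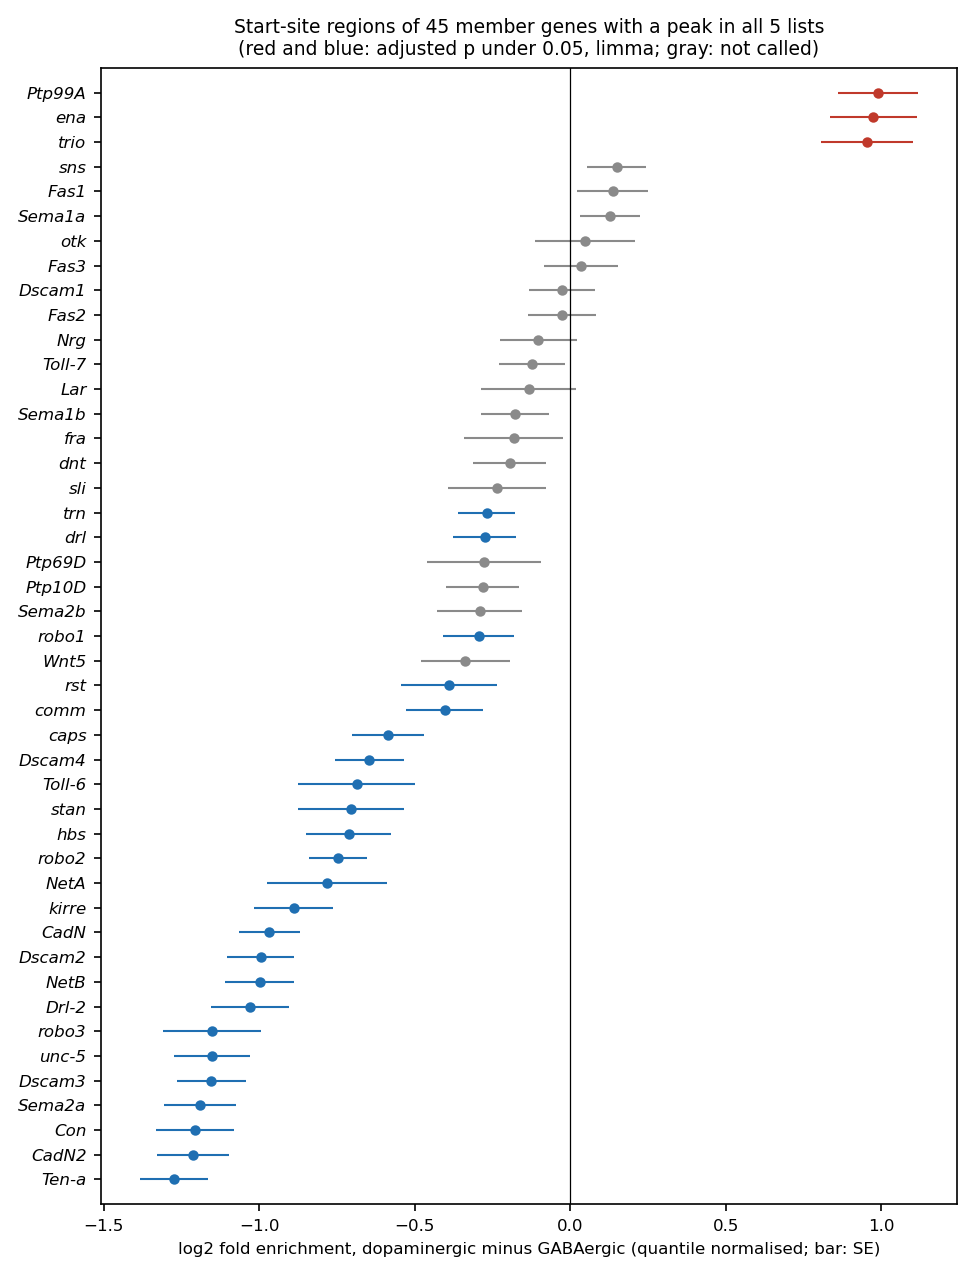
Log2 fold enrichment at the start site, dopaminergic minus GABAergic (x axis, quantile normalised, bars show SE), of the 45 members with a start-site peak in all 5 lists (y axis). The 24 genes in blue were called higher in GABAergic libraries and the 3 in red, *Ptp99A*, *ena* and *trio*, higher in dopaminergic libraries. Gray genes were not called.

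Scores were computed anew from the regions within 1000 bp of a start site and from those farther away. Near start sites, 5 of 34 members were higher in dopaminergic and 10 in GABAergic neurons, where all genes gave 32.9% and 12%. Farther away, 5 of 44 members were higher in dopaminergic and 24 in GABAergic neurons, where all genes gave 17% and 30.9%. Of 30 members tested in both classes, 8 were higher in GABAergic neurons in both, *robo3*, *unc-5*, *Sema2a*, *Sema2b*, *Lar*, *Con*, *Toll-6* and *stan*. This was 26.7% of the members, against 8.67% of the 2375 genes tested in both. *Sema1b* alone was higher in dopaminergic neurons in both, by 25.4 near and 48.7 far (3.33% of the members, all genes 12.6%). *CadN* and *Dscam4* were called in opposite directions by score. *CadN* differed by 12.9 near (adjusted p = 0.0171) and by -25.4 far (adjusted p = 0.0028), and *Dscam4* by 21.0 near (adjusted p = 0.0036) and by -18.5 far (adjusted p = 0.0072). Each of these near scores includes 1 dopaminergic-only region, with fold enrichments of 3.83 and 3.76 in the dopaminergic libraries at *CadN* and of 3.61 and 3.98 at *Dscam4*, and 1 region without any peak. The near regions with a peak in all 5 lists went the other way by fold enrichment, with log2 differences of -0.97 (adjusted p = 1.49e-06) and -0.79 (adjusted p = 1.92e-05) at *CadN* and of -0.65 (adjusted p = 0.000177) at *Dscam4*, the direction of the far regions. Over all genes, 63 of 2375 (2.65%) were called in opposite directions, 54 of them with the near regions higher in dopaminergic neurons. *Sema1a* and *Ptp99A* had differences of -40.8 and -28.9 far from start sites but of 2.23 and 3.38 near them, where they were not called. *Sema5c* differed by 62.0 near and was not called far (difference -7.41), and *caps* differed by 33.9 far and was not called near (difference 5.20). The difference between near and far itself was not tested.

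**Figure D4:**
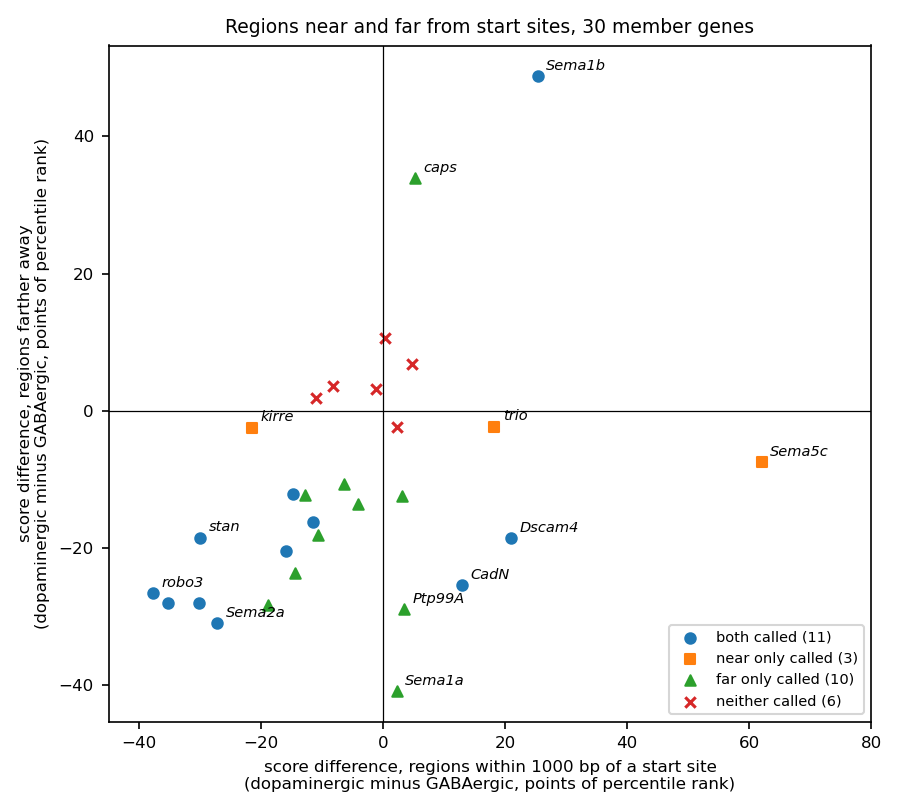
Score difference between groups from regions farther than 1000 bp from a start site (y axis) against that from regions within 1000 bp (x axis), both in points of percentile rank, for 30 members. Circles were called in both classes, squares near only, triangles far only and crosses in neither. *CadN* and *Dscam4* lie in the lower right, called in opposite directions by score, though their start-site peaks had higher fold enrichment in GABAergic libraries, and *Sema1a* and *Ptp99A* near the vertical axis.

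The gene given to a region decides part of these results, because genes with a start site inside or beside a long intron take the regions around it. The span of *Ten-m* held 139 regions, all of them given to other genes, and its own 7 regions lay outside the span. Of the regions in the spans of *Sema1a*, *Ten-a*, *Lar*, *kirre* and *caps*, 56 of 64, 86 of 105, 69 of 89, 90 of 116 and 31 of 37 carried another name. Regions were therefore also given to the gene whose exon or intron holds them, where the table's annotation names one, a choice made after these counts were seen. The members then had 1483 regions. In this version 30 (61.2%) of 49 were higher in GABAergic and 3 (6.12%) in dopaminergic neurons, while all genes gave 20.3% and 26.8%. By nearest start site, genes with many regions were more often called higher in GABAergic neurons. The members had still more regions here, and no share of all genes with as many regions was computed for this version. Of the 24 members higher in GABAergic neurons by nearest start site, 23 were called in both versions, and *Nrg* was not. The 7 genes called in addition were *robo2*, *NetB*, *Ptp10D*, *Fas2*, *Ten-m*, *sns* and *kirre*. *Ten-m*, now with 120 regions, had scores of 33.2 and 33.4 in dopaminergic and 46.2, 45.6 and 44.8 in GABAergic libraries, a difference of -12.2 (SE 2.54, adjusted p = 0.0112). *NetB*, with 18 regions, differed by -23.5 (SE 3.31, adjusted p = 0.00313).

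On the dopaminergic side the assignment mattered more. *Sema1b*, *Ptp52F* and *dock* were called in both versions, with differences of 28.9, 12.3 and 13.1 by exon or intron. *Sema5c* was no longer called (difference 12.8, adjusted p = 0.0639). *Fas3* and *caps* lost the difference itself. *Fas3*, with 32 regions, had scores of 45.5 and 52.1 in dopaminergic and 49.0, 47.5 and 47.0 in GABAergic libraries, a difference of 0.915 (SE 3.12). *caps*, with 30 regions, scored 50.4 and 48.7 against 53.3, 52.2 and 50.4, a difference of -2.41 (SE 2.67). For these 2 genes the higher score in dopaminergic neurons was thus found over the regions nearest to their start sites and not over the whole transcribed span.

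**Figure D5:**
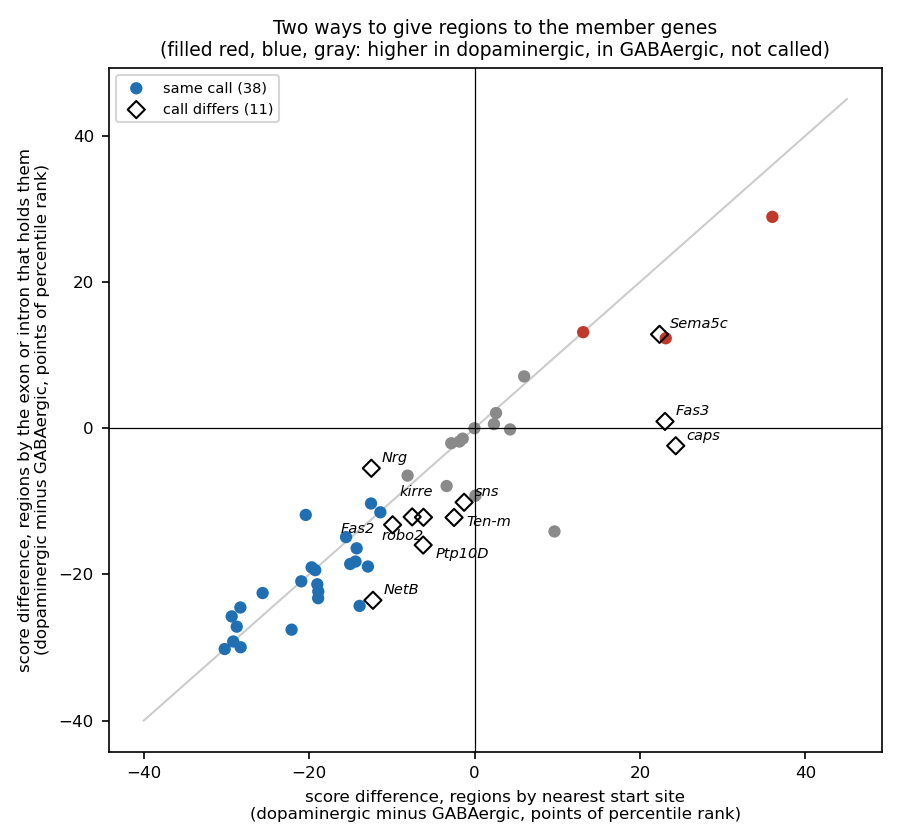
Score difference between groups for the 49 genes with regions given to the gene whose exon or intron holds them (y axis) against regions given by nearest start site (x axis), in points of percentile rank. The gray line marks equal values, and open diamonds mark the 11 genes whose call differs: *caps* and *Fas3* drop to near 0, and 7 genes such as *NetB* and *Ten-m* become called as higher in GABAergic neurons.

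Other genes of the same pathways gave a mixed picture, to be read against the 26.2% and 22.6% of all genes called higher in dopaminergic and GABAergic neurons. Of 20 further guidance ligands, receptors and co-receptors, 15 were tested, 7 (46.7%) were higher in GABAergic neurons and 0 in dopaminergic neurons by limma, also 0 at an unadjusted p under 0.05. These 7 were the Echinoid-like adhesion gene *fred* (difference -28.4), the ligand gene *Wnt4* (-21.6), the heparan sulfate proteoglycan genes *Sdc* (-15.9) and *dlp* (-14.2), and the immunoglobulin genes *klg* (-14.5), *tutl* (-13.3) and *bdl* (-8.27). The other 8 tested genes were not called. The plexin genes *PlexA* and *PlexB*, and also *Eph*, *Ephrin* and *btl*, had no region in the table, so their chromatin could not be compared. Why they had none was not tested. Of 20 tested further adhesion genes, 8 (40.0%) were higher in dopaminergic and 4 (20.0%) in GABAergic neurons, the latter near the share of all genes. The 4 were the neuroligin genes *Nlg4* (-29.2), *Nlg2* (-23.9) and *Nlg1* (-20.2), which encode postsynaptic adhesion proteins, and *haf* (-13.3). The 8 included the integrin genes *if* (35.3), *mys* (25.2) and *scb* (13.0), and the leucine-rich repeat gene *Lrt* (35.7). The other 4 were the Toll receptor genes *18w* (16.5) and *Tollo* (10.8) and the cadherin genes *ft* (16.7) and *Cad88C* (13.6). Their direction was opposite to that of the members *Toll-6*, *CadN*, *CadN2* and *stan*. Of 22 tested cytoskeletal genes, 10 (45.5%) were higher in dopaminergic neurons, led by *Rho1* (41.3) and the profilin gene *chic* (28.8), and 2 (9.09%) in GABAergic neurons, the kinase genes *Src64B* (-18.9) and *Pak* (-8.94).

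Marker genes were read on the same scale. *ple*, which encodes tyrosine hydroxylase, differed by 39.4 and *Gad1*, which encodes glutamic acid decarboxylase, by -29.6. *Ddc* (18.7) and *Lim3* (-13.4) were called as well. *DAT* (-2.97), *Vmat* (-14.2) and *VGAT* (-1.65) were not called. The study, by its own test on counts, reported single peaks of *DAT* as more open in dopamine neurons, which the score did not show. The glutamatergic gene *VGlut* was higher in GABAergic libraries (-35.5), as were 2 of 5 photoreceptor genes and none in the other direction. All 3 tested genes of the epidermal list, one of which is *ple*, were higher in dopaminergic libraries, with mean scores of 78.4 to 80.1 against 36.6 to 41.5. *grh*, an epidermal transcription factor gene, differed by 39.4 and *yellow-c* by 43.9. The fat body gene *Fatp1* differed by 26.0, the glial genes gave 3 higher and 2 lower of 6, and the 2 hemocyte genes tested were not called. Of the pan-neuronal genes *elav*, *nSyb* and *brp* were not called and *Syt1* differed by -10.4. Only some of these markers differed between the groups, and their part in the results for the guidance genes was not tested. A smaller number of cells of one type and less accessible chromatin per cell cannot be told apart in such libraries.

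List length was a further difference between the groups. When each list was reduced to its 39261 intervals with the best q-values, 6 members were higher in dopaminergic and 21 in GABAergic neurons, against 24.3% and 19.3% of all genes. Without the first dopaminergic library 13 members were called higher in GABAergic neurons, and without the second 17. The genes called in that direction whichever of the 5 libraries was left out were *NetA*, *Sema2a*, *Toll-6*, *Dscam3*, *Con*, *robo3*, *CadN2*, *Ten-a*, *Ptp99A*, *stan*, *Dscam2*, *CadN* and *Sema2b*, and in the other direction *Sema1b*, *caps*, *Ptp52F* and *Fas3*. The other 13 called members lost the call without at least 1 library, *Sema5c* without the second dopaminergic one (adjusted p = 0.0799) and *dock* without the first (adjusted p = 0.107). With only peaks of a −log10 q of at least 5, *dock* and *Ptp52F* were not called (differences 5.63 and 9.27), nor were *comm*, *Drl-2*, *Nrg* and *unc-5*.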

How the data were processed

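The authors aligned reads with Bowtie2 to the release 6 genome, sorted them with SAMtools, removed duplicates with Picard and called peaks with MACS2 in each library. The settings of MACS2, and how the 80590 regions were made, are not given in the sources used here. The deposited peak lists give for each peak a fold enrichment (a ratio over local background) and a −log10 q-value. The deposited comparison table gives a mean signal (normalised read counts over all libraries), the nearest gene and an annotation made with ChIPseeker. It also holds the authors' own log2 fold changes, statistics and p-values from DESeq2, which were not used. As the files give no counts per library, limma on values from the peak lists took the place of a count test.

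Peak positions were converted to count from 1. Python 3.11.15 with pandas 2.3.3, numpy 2.4.6 and scipy 1.17.1 served for percentile ranks, gene means and call patterns. Models were fitted with R 4.3.3 and limma 3.58.1, without trend for scores and with trend for fold enrichment, with Benjamini-Hochberg adjustment over all genes or regions. Figures were drawn with matplotlib 3.10.9. The functions were tested on simulated data. All 49 members matched RefSeq, which gave gene spans only. Members and gene lists were chosen with earlier results of these data known. Values per library are given for called members, up to 8 per direction, for the 5 members with the most regions, for the member with the largest difference of each role group, and for the 3 leading regions of each kind. Genome sequence was not used here. No pairing was assumed, since the labels give only a replicate number. Correlations of deviations between same-numbered libraries were -0.054 and 0.079. The deviations of the 2 dopaminergic libraries mirror each other, so these values cannot decide whether libraries were paired.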

Additional observations from a re-analysis of the deposited data

How the results depend on the processing

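Single members had the same call, or no call in both cases, in 787 of the values from other settings. They lost the call in 67, gained one in 26, and 6 values of called members reversed in sign. Changes of sign among members not called in either setting are counted as the same. An example is *rst*, with 9.66 by nearest start site and -14.13 by exon or intron. The reversed values were, from regions within 1000 bp of a start site, *Sema1a* 2.23, *Dscam4* 21.0, *Ptp99A* 3.38 and *CadN* 12.9, from farther regions *Sema5c* -7.41, and from assignment by exon or intron *caps* -2.41. The causes were not tested, beyond the change of regions that these settings make.

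Leaving out 1 library at a time gave 13 to 23 members higher in GABAergic and 5 to 6 in dopaminergic neurons, and 1073 to 2090 and 1654 to 2343 of all genes. The lowest count followed from leaving out the first dopaminergic library. Restricting the test to genes with at least 10 regions gave 3 members, and 610 and 887 of all genes, higher in dopaminergic and GABAergic neurons. Near start sites alone these were 10 members higher in GABAergic neurons and 1618 and 592 of all genes, and far from them 917 genes higher in dopaminergic neurons. Fewer genes could be tested in each of these 3 settings. The median over regions in place of the mean gave 1617 genes higher in dopaminergic neurons. Assignment by exon or intron, added after the data had been seen, gave 3 members higher in dopaminergic neurons.

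With peaks of −log10 q of at least 5, 6 member regions were higher in dopaminergic neurons by fold enrichment. Without normalization between lists, 2430 regions of the table were higher in GABAergic neurons and 49 of the member regions. With equal numbers of intervals, 85 in place of 178 member regions and 5770 in place of 10629 of all regions were open in GABAergic lists only, and 49 in place of 44 member regions in dopaminergic lists only. A minimum q, an overlap of at least 50%, ranking by q and summits inside regions left the counts of called members within 1.5 times.

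With the replicate number as a block, 4 members were higher in dopaminergic and 23 in GABAergic neurons, and 2015 and 1739 of all genes. *Sema5c*, *dnt*, *comm* and *dock* lost and *Fas2* gained the call. The labels give these libraries only a number in common, and the correlations of -0.054 and 0.079 cannot decide whether they share more.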
